A study of Mus musculus with 6 samples.

Results

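Described here are 34 genes of the folding and stress machinery of the endoplasmic reticulum (ER), out of 11578 genes tested on 6 mouse arrays. These members were named as a list by gene symbol, and the list was chosen with earlier results of these data known. A gene was read from the probe sets that carry its symbol alone, and where there were several the probe set with the highest mean represented it. All 34 members were on the array and all passed the filter on dim probe sets, a mean log2 value of 7.715. RNA of the whole mammary gland was measured in females of mixed background (129, FVB and Black Swiss), 1 mouse to an array. The virgin mutant was Brca1 D11/D11;p53+/- and its control p53+/- without the D11 allele, written Brca1 D+/+ in the labels, both 6 months old. The pregnant mutant was Brca1 co/co with MMTV-Cre and its control Brca1 +/co with MMTV-Cre, both 5 months old and at day 16.5 of pregnancy. The lactating mutant was Brca1 D11/D11;p53+/- and its control again p53+/-, both 2 months old and on day 1 of lactation. Loss of 1 p53 copy is thus shared by mutants and controls of the virgin and lactating pairs, and MMTV-Cre and at least 1 conditional Brca1 allele by both pregnant mice. The MMTV promoter drives Cre mainly in the mammary epithelium, so other cells of the conditional mutant keep their Brca1. The D11 allele is in the germline.

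The ER is where secreted and membrane proteins enter the secretory route, fold, gain disulphide bonds and sugars, and are checked before export. Chaperones such as Hspa5 hold unfolded chains, and when these accumulate the sensors Ern1, Eif2ak3 and Atf6 start the unfolded protein response, which slows translation and raises the genes for chaperones and for degradation. In the mammary gland the secretory epithelium builds a large ER late in pregnancy and makes milk proteins.

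Many ER stress genes are known targets of Atf6 and Xbp1 through the ER stress element, CCAAT and CCACG with 9 bases of any kind between them. The element was searched on both strands of the RefSeq promoter windows (GRCm38.p6, 250 bases before to 50 bases after each start), which 28 of the 34 members had. It lay in the windows of 8 of these 28 members, 28.6%, against 0.137% of all genes with a window, 37 of 27025, the 8 included. They are shown because the members that carry it include Hsp90b1, which fell at lactation, and 7 of the 15 members that were higher in the mutant of all 3 pairs. The capitals mark CCAAT and CCACG, which read ATTGG and CGTGG where the element lies on the other strand. Hsp90b1 carried 2 copies.
Hspa5: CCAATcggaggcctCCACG
Hsp90b1, upstream copy: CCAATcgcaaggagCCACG
Hsp90b1, downstream copy: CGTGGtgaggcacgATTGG
Pdia6: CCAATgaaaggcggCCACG
Dnajc3: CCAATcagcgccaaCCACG
Canx: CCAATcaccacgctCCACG
Calr: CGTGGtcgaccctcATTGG
Creld2: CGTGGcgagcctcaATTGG
Syvn1: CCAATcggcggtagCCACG
The element began 65 bases before the start in Hspa5, 44 in Syvn1, 98 in Pdia6, 105 in Dnajc3, 126 in Creld2, 145 in Canx and 162 in Calr. The copies of Hsp90b1 began 212 and 107 bases before its start. The windows of Hsp90b1 (chr10:86705395-86705694, minus strand), a chaperone gene that fell at lactation, and of Syvn1 (chr19:6046326-6046625, plus strand), a degradation gene that rose, are printed whole in the direction of transcription, with the same capitals.
Hsp90b1: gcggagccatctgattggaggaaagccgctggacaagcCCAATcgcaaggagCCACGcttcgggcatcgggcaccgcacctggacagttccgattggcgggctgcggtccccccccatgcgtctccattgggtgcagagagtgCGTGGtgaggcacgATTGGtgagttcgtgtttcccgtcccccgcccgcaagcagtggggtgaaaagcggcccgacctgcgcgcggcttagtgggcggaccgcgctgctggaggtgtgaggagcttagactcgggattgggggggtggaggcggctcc
Syvn1: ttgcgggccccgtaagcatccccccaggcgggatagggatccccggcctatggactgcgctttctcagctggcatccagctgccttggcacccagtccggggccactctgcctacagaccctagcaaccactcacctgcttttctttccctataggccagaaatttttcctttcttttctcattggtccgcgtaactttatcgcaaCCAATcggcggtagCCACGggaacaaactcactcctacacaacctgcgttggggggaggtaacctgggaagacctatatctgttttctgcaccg
The CCACG part alone, which overlaps the full element, was present in 22 of the 28 members, 78.6%, and in 35.482% of all genes. The amino acid response cores TGATGCAAT and TGATGAAA, known for Atf4 targets, were in 0 of the 28 members, against 0.222% and 1.151% of all genes. With shares this low, 0 of 28 does not set the members apart, and sites outside the windows were not searched. A match is letters in a window, not a shown binding site.

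Lalba, for a milk whey protein, followed the labelled stages, with signals of 27.9 and 61.5 in virgin, 1464 and 2975 in pregnant and 58796 and 43159 in lactating mutant and control, while Csn2, for beta-casein, lay between 30621 and 44423 on all 6 arrays, virgins included. The summed signal of 12 milk-secreting genes was 130811 to 166715 in virgin, 283729 to 397207 in pregnant and 428879 to 457158 in lactating glands. Skeletal muscle genes (11 genes) summed to 14628 and 42198 in virgin, 190623 and 163968 in pregnant and 84559 and 90849 in lactating mutant and control. The brightest probe set of Brca1 read 486.5 and 137.0 in virgin, 288.0 and 158.7 in pregnant and 156.7 and 237.6 in lactating mutant and control; where it lies relative to the deleted part is not known here, and it does not check the genotypes. The ratio of 3' to 5' actin probe sets ran between 1.37 and 2.74 and was highest in the virgin control, as was that of Gapdh, 3.50 against 0.73 to 1.52 on the other arrays. The lactating arrays carry another array date in their titles than the other 4. Virgin and pregnant arrays share theirs. Stage and age cannot be told apart in any comparison of stages, nor can stage and array date where the lactating arrays take part. Where the pregnant pair takes part, stage cannot be told apart from the kind of Brca1 allele, from MMTV-Cre or from p53, for which the labels give that pair no lost copy.

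**Figure D1:**
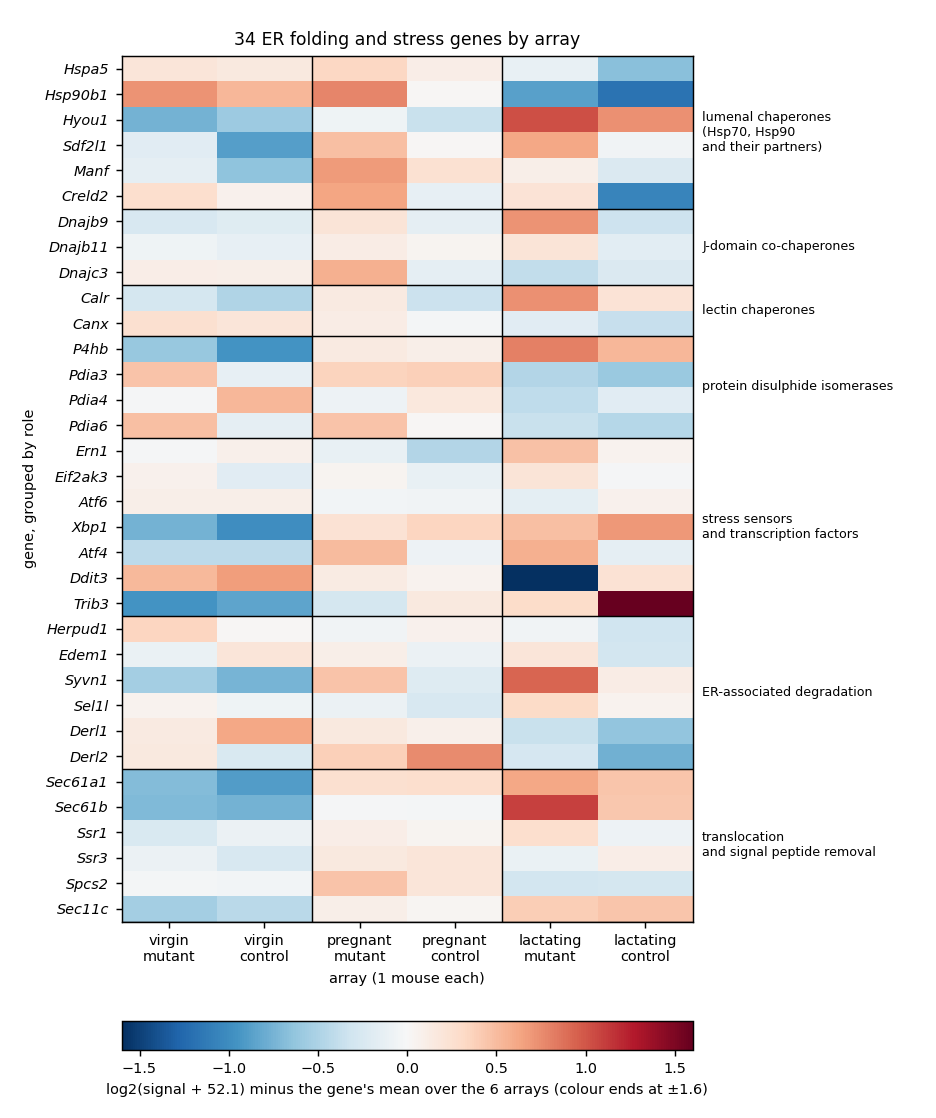
Colour shows log2(signal + 52.1) of each of the 34 members minus the gene's mean over the 6 arrays (1 mouse each); rows are genes grouped by role and columns are the arrays, mutant left of control within a stage. The lactating mutant column holds the highest value of 14 members. The lactating control column holds the lowest of 12 and the virgin control column the lowest of 11. The same counts over all tested genes are not given here.

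Members were called in both directions at lactation, as were all genes. Of the 34 members, 11 were called higher and 6 lower in lactating than in virgin glands, where called means an adjusted p under 0.05 in a limma model over all 6 arrays. Over all tested genes 23.9% were called higher and 28.2% lower. The median log2 ratio of the members was 0.16, against -0.10 over all genes. All log2 ratios are of log2(signal + 52.1), which understates changes of dim genes. In bulk glands, fewer cells of a type and less RNA per cell cannot be told apart. The higher ones include the translocon genes Sec61a1 and Sec61b, the isomerase P4hb and the factor Xbp1. The lower ones include the lumenal chaperones Hsp90b1 and, at the edge of the threshold, Hspa5. With 1 array left out, a fit has 1 array in a stage, and the members' median was 0.0188 to 0.2148. Fewer members were then called lower, while those called higher changed either way. Over all genes fewer were called in both directions. The calls named below as lost with 1 array left out come from such fits.

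Among the 6 genes for protein entry and signal peptide removal, 3 rose in lactating against virgin glands, 0 fell, and the median ratio was 0.58. Sec61a1, the channel-forming subunit of the translocon, had signals of 3936 and 3405 in virgin mutant and control, 7649 and 7693 in pregnant and 9819 and 8732 in lactating glands. Both lactating arrays were the highest and both virgin arrays the lowest. Its log2 ratio was 1.33 ± 0.18 (SE, adjusted p = 0.001157) in lactating and 1.06 ± 0.18 (adjusted p = 0.01247) in pregnant, each against virgin glands. All 6 of its probe sets above the filter were higher in lactating than in virgin glands, by 1.33 to 3.75. Sec61b, a small subunit of the same channel, had signals of 4393 and 4231 in the virgin, 7083 and 7058 in the pregnant and 15387 and 9713 in the lactating pair. The 3 stages did not overlap, and the lactating mutant stood above its control. The ratio was 1.49 ± 0.22 (SE, adjusted p = 0.001558) against virgin and 0.79 ± 0.22 (adjusted p = 0.03407) against pregnant glands. Sec11c, a catalytic subunit of the signal peptidase, had 3034 and 3261 in virgin, 4754 and 4550 in pregnant and 5823 and 6070 in lactating mutant and control, and rose by 0.91 ± 0.18 (SE, adjusted p = 0.005107) in lactating against virgin glands. With each array centred on its own median the call of Sec11c was lost, at 0.32 (adjusted p = 0.2626). Spcs2, an accessory subunit of that peptidase, ran otherwise: 5221 and 5175 in virgin, 7298 and 6058 in pregnant and 4309 and 4366 in lactating glands, with a fall of 0.61 ± 0.19 on the log2 scale (SE, adjusted p = 0.04322) in lactating against pregnant glands. That call was lost with any 1 of the 4 arrays left out, at -0.75 to -0.48, and the call of Sec61b against pregnant glands was lost without the pregnant mutant (0.61), the pregnant control (0.96) or the lactating mutant (0.47). The pregnant to virgin call of Sec61a1 was lost without the pregnant control (0.96), the virgin mutant (1.12) or the virgin control (0.99). Ssr1 and Ssr3, of the translocon-associated protein complex, were called in no comparison, at 0.26 ± 0.20 and 0.18 ± 0.19 (SE) in lactating against virgin glands.

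**Figure D2:**
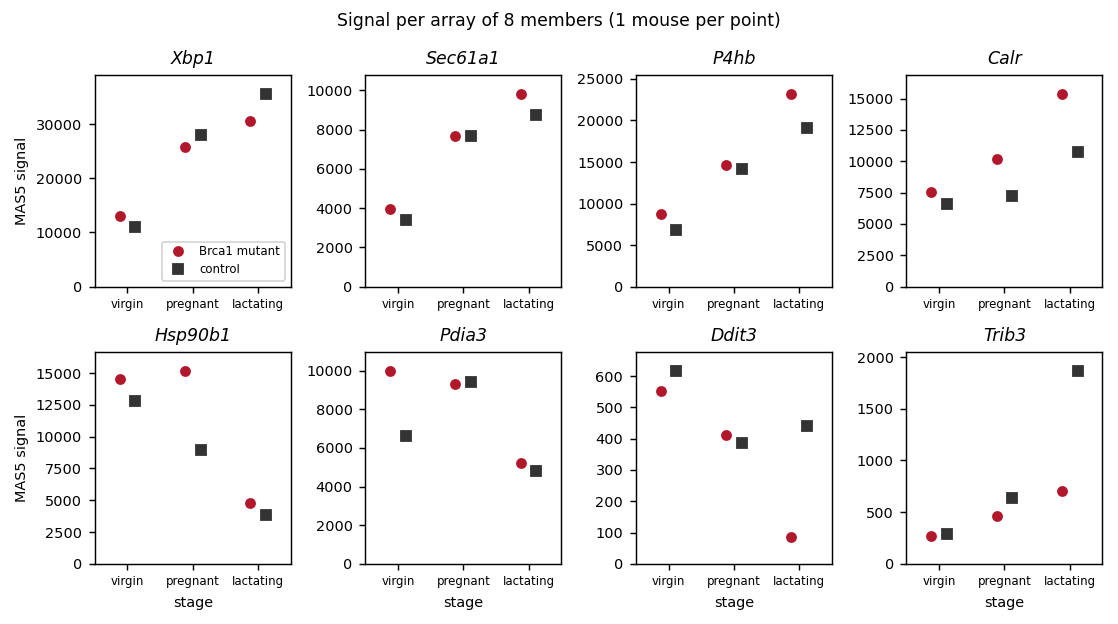
MAS5 signal (linear axis from 0) of 8 members by stage, 1 point per mouse, mutant left of control. Xbp1, Sec61a1 and P4hb are lowest in both virgin arrays, Hsp90b1 and Pdia3 lowest in both lactating arrays.

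The 6 lumenal chaperones and partners divided. Hspa5, the ER Hsp70, had 13494 and 13165 in virgin, 14877 and 12653 in pregnant and 10879 and 7380 in lactating mutant and control. The lactating control was the lowest of the 6 arrays and the lactating mutant the next. The ratio of lactating to virgin was -0.57 ± 0.21 (SE, adjusted p = 0.04984), at the edge of the threshold, and its 3 probe sets ranged from -0.75 to 0.92, so they did not have one sign. The call was lost without the virgin mutant (-0.75), the virgin control (-0.39) or the lactating control (-0.36), and with all probe sets averaged, at -0.13 (adjusted p = 0.5795). Hsp90b1, the ER Hsp90, had 14520 and 12820 in virgin, 15169 and 8951 in pregnant and 4821 and 3881 in lactating glands. Both lactating arrays lay below all others. It fell by 1.65 ± 0.21 on the log2 scale (SE, adjusted p = 0.0008712) against virgin and by 1.42 ± 0.21 (adjusted p = 0.004775) against pregnant glands, and its other probe set was at -0.43 against virgin glands. Hyou1, a large Hsp70-like protein that exchanges the nucleotide of Hspa5, ran the other way. Its signals were 870.6 and 993.6 in virgin, 1436 and 1173 in pregnant and 3135 and 2551 in lactating mutant and control. The stages did not overlap, and the log2 ratio was 1.55 ± 0.21 (SE, adjusted p = 0.001028) against virgin and 1.09 ± 0.21 (adjusted p = 0.009829) against pregnant glands. Sdf2l1, a cofactor in Hspa5 complexes, had 641.0 and 377.2 in virgin, 1047 and 749.1 in pregnant and 1159 and 705.6 in lactating glands. It rose by 0.81 ± 0.20 (SE, adjusted p = 0.01185) in lactating and by 0.78 ± 0.20 (adjusted p = 0.04154) in pregnant, each against virgin glands. The lactating call was lost without the virgin mutant (0.87) or the virgin control (0.75), and with arrays centred on their medians (0.22), while the pregnant call was lost with any 1 of its 4 arrays left out, at 0.67 to 0.90. For Hyou1 the call against pregnant glands was lost without the pregnant mutant (1.21) or the pregnant control (0.98). Manf, an ER-held factor induced by stress, was called in pregnant glands alone, with 3795 and 2672 in virgin, 6795 and 5008 in pregnant and 4490 and 3578 in lactating mutant and control. Its pregnant to virgin ratio was 0.86 ± 0.18 (SE, adjusted p = 0.02229). The call was lost with any 1 of the 4 arrays left out, at 0.80 to 0.92, and with arrays centred on their medians, at 0.69 (adjusted p = 0.07296). Creld2, an ER-held protein of the stress response, had a ratio of -0.59 ± 0.27 (SE) in lactating against virgin glands and was not called.

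None of the 3 J-domain co-chaperones, Dnajb9, Dnajb11 and Dnajc3, which pass clients to Hspa5, was called between stages. Their ratios of lactating to virgin were 0.41 ± 0.27, 0.12 ± 0.20 and -0.41 ± 0.25 (SE). The 5 probe sets of Dnajc3 ranged from -0.41 to 1.57 in that comparison, so they did not have one sign. Of the lectin chaperones, which hold newly glycosylated chains, Calr had 7573 and 6592 in virgin, 10160 and 7238 in pregnant and 15375 and 10736 in lactating mutant and control. It rose by 0.86 ± 0.19 (SE, adjusted p = 0.008021) in lactating against virgin glands. Without the virgin mutant it was 0.71 (adjusted p = 0.07433), and with arrays centred on their medians 0.27 (adjusted p = 0.3783). Canx, its membrane-bound relative, had 9955 and 9489 in virgin, 9042 and 8144 in pregnant and 7326 and 6418 in lactating glands. Both lactating arrays lay below both virgin arrays, with a ratio of -0.50 ± 0.18 (SE, adjusted p = 0.05079), which missed the threshold. The 3 probe sets of Canx ranged from -0.54 to 0.12.

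The 4 protein disulphide isomerases, which form and rearrange disulphide bonds, split as well. P4hb had 8693 and 6799 in virgin, 14690 and 14181 in pregnant and 23210 and 19145 in lactating mutant and control. The stages did not overlap. It rose by 1.45 ± 0.19 (SE, adjusted p = 0.0009661) in lactating and by 0.90 ± 0.19 (adjusted p = 0.02267) in pregnant, each against virgin glands. The pregnant call was lost with any 1 of its 4 arrays left out, at 0.77 to 1.04. Pdia3, the isomerase that works with Calr and Canx, had 9986 and 6612 in virgin, 9293 and 9428 in pregnant and 5227 and 4786 in lactating glands. Both lactating arrays were the lowest, with ratios of -0.69 ± 0.21 (SE, adjusted p = 0.02841) to virgin and -0.90 ± 0.21 (adjusted p = 0.01952) to pregnant glands. Pdia6 had 4228 and 2717 in virgin, 4132 and 3039 in pregnant and 2348 and 2177 in lactating glands, with ratios of -0.57 ± 0.20 (SE, adjusted p = 0.04717) to virgin and -0.64 ± 0.20 (adjusted p = 0.04865) to pregnant glands. The other probe sets of Pdia3 and Pdia6 pointed up, at 1.41 and 0.91 in lactating against virgin glands, but both were dim. That of Pdia3 read 136.4 and 135.5 in virgin and 452.9 and 440.9 in lactating mutant and control. That of Pdia6 read 150.7 and 65.1 in virgin and 244.8 and 229.2 in lactating glands, near the filter's signal of 158.1. The direction of these genes thus depends on whether a dim probe set is counted. With 1 array left out, the lactating to virgin calls were lost for Pdia3 without the virgin mutant (-0.43), the lactating mutant (-0.62) or the lactating control (-0.77), and for Pdia6 without the virgin mutant (-0.40), the virgin control (-0.75) or the lactating mutant (-0.36). Against pregnant glands they were lost without either pregnant array or the lactating mutant, at -1.09 to -0.71 for Pdia3 and -0.67 to -0.42 for Pdia6. Pdia4 was at -0.55 ± 0.20 (SE, adjusted p = 0.05275) in lactating against virgin glands and was not called.

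**Figure D3:**
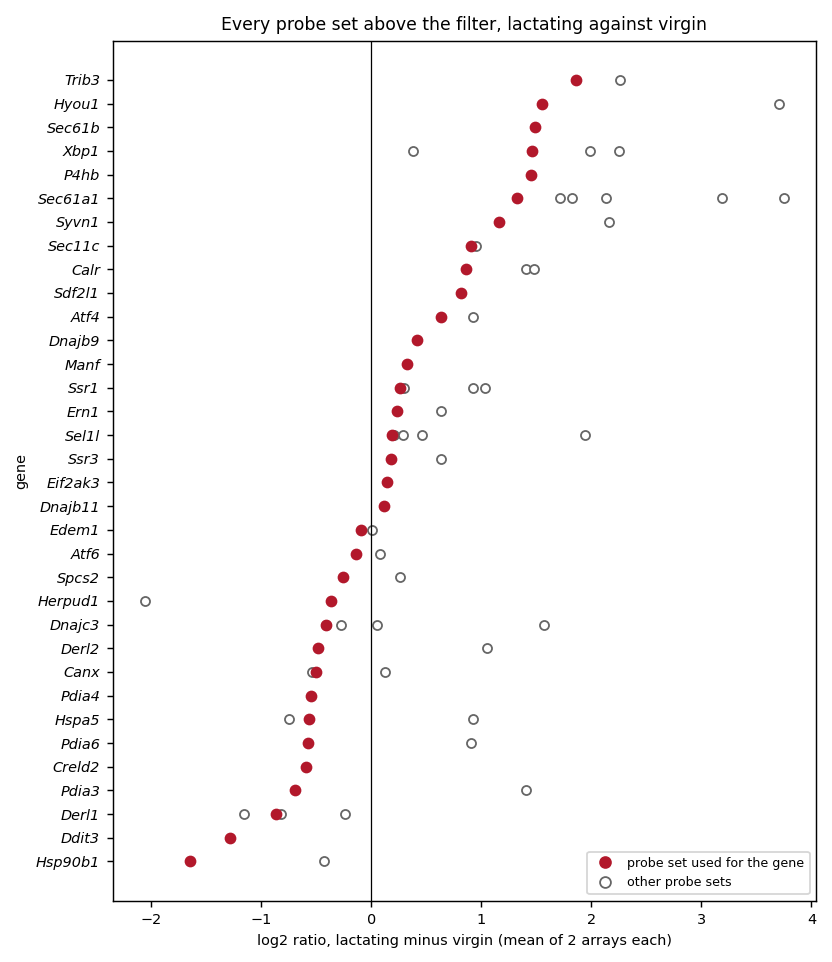
Log2 ratio of lactating minus virgin glands (means of 2 arrays each) for every member probe set above the filter; filled points are the probe set used for the gene, open points its others. Sec61a1, Hyou1, Calr and Trib3 lie on one side of 0, while Hspa5, Pdia3 and Pdia6 have probe sets on both sides.

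Over the 24 members with at least 2 probe sets above the filter, all probe sets had one sign for 15 in lactating against virgin glands. Among the called members of that comparison it was 10 of 13. The disagreeing 3 were Hspa5, Pdia3 and Pdia6. For Pdia3 and Pdia6 the probe set that pointed up was dim. In pregnant against virgin glands the probe sets had one sign for 16 of 24, and in lactating against pregnant glands for 12 of 24.

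Of the 7 stress sensors and transcription factors, the 3 sensors were not called and 4 of the other members were, 3 higher and 1 lower. Ern1, Eif2ak3 and Atf6 had ratios of 0.24 ± 0.22, 0.15 ± 0.18 and -0.14 ± 0.20 (SE) in lactating against virgin glands, none called. Xbp1, the factor whose RNA Ern1 splices, had 13027 and 11038 in virgin, 25713 and 27975 in pregnant and 30629 and 35595 in lactating mutant and control. The stages did not overlap, and the largest step was between virgin and pregnant glands. Its ratios to virgin glands were 1.46 ± 0.21 (SE, adjusted p = 0.001248) in lactating and 1.16 ± 0.21 (adjusted p = 0.01346) in pregnant glands. The pregnant call was lost without the pregnant control (1.09) or the virgin control (0.95). The array does not separate spliced from unspliced Xbp1. Atf4, the factor translated when Eif2ak3 is active, had 3029 and 3025 in virgin, 5800 and 3852 in pregnant and 6047 and 3685 in lactating glands. It rose by 0.63 ± 0.23 (SE, adjusted p = 0.04774) in lactating against virgin glands, and the pregnant control lay above the lactating control. The call was lost without the virgin mutant (0.31) or the lactating mutant (0.43), and with arrays centred on their medians (0.04).

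The Atf4 targets Trib3 and Ddit3 moved apart. Trib3, a pseudokinase, had 267.7 and 291.7 in virgin, 458.3 and 634.7 in pregnant and 708.0 and 1865 in lactating mutant and control. All stages were separate, and the lactating control was far above the other 5 arrays. It rose by 1.86 ± 0.31 (SE, adjusted p = 0.002292) against virgin and by 1.03 ± 0.31 (adjusted p = 0.03989) against pregnant glands. Ddit3, the pro-death factor CHOP, had 553.3 and 616.2 in virgin, 411.3 and 386.1 in pregnant and 86.1 and 440.6 in lactating glands. The lactating mutant was below the filter's signal of 158.1, and the lactating control lay above both pregnant arrays. The ratio of lactating to virgin was -1.29 ± 0.44 (SE, adjusted p = 0.04268). Without the lactating mutant it was -0.38 (adjusted p = 0.3005), and the call was also lost without the virgin mutant (-0.92) or the virgin control (-1.65). For Trib3 the call against pregnant glands was lost without the pregnant mutant (1.17), the pregnant control (0.88) or the lactating control (0.49).

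Of the 6 genes for ER-associated degradation, which returns misfolded chains to the cytosol, 1 rose and 1 fell. Syvn1, the ubiquitin ligase of the pathway, had 1082 and 933.6 in virgin, 2217 and 1383 in pregnant and 3091 and 1737 in lactating mutant and control. It rose by 1.17 ± 0.22 (SE, adjusted p = 0.003746) in lactating against virgin glands. With arrays centred on their medians the call was lost, at 0.58 (adjusted p = 0.08997). Derl1, a membrane protein of the export channel, had 5069 and 7064 in virgin, 5137 and 4861 in pregnant and 3596 and 2944 in lactating glands. Both lactating arrays were the lowest, and it fell by 0.87 ± 0.23 on the log2 scale (SE, adjusted p = 0.01551), with its 4 probe sets between -1.16 and -0.24. Derl2, its relative, had 1759 and 1320 in virgin, 2050 and 2673 in pregnant and 1289 and 895.7 in lactating glands. It fell by 1.09 ± 0.25 (SE, adjusted p = 0.01816) in lactating against pregnant glands, with its other probe set at 0.74. The call of Derl1 was lost without the virgin control (-0.54) or the lactating control (-0.63), and that of Derl2 without the pregnant control (-0.67) or the lactating control (-0.84). Sel1l, the partner of Syvn1, Edem1, which binds trimmed glycans, and Herpud1, an adaptor of the ligase complex, were not called. Their ratios of lactating to virgin were 0.19 ± 0.18, -0.09 ± 0.24 and -0.36 ± 0.21 (SE). The other probe set of Herpud1 was at -2.06, and the 5 of Sel1l ranged from 0.19 to 1.95.

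**Figure D4:**
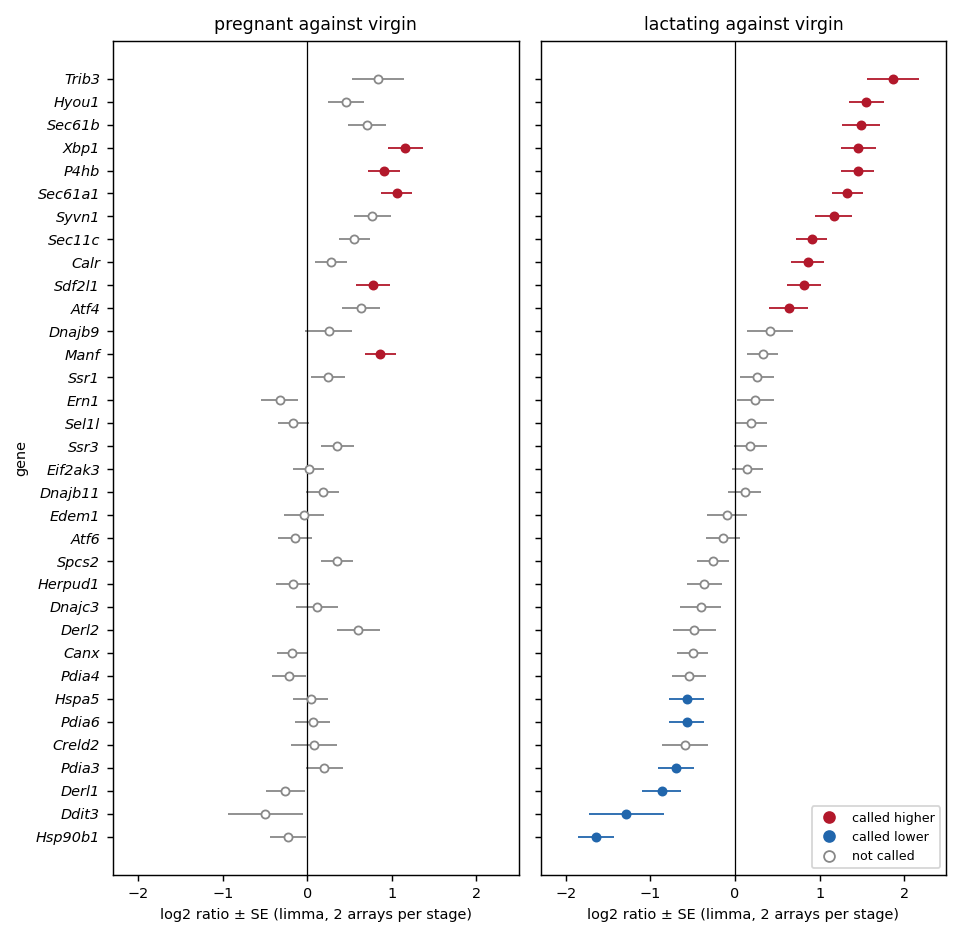
Log2 ratios ± SE from limma of the 34 members in pregnant and in lactating glands, each against virgin glands (2 arrays per stage). Red points are called higher, blue points lower and open points not called. Hsp90b1 lies lowest and Trib3 highest in lactating against virgin glands.

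Between virgin and pregnant glands, 5 members were called higher and 0 lower (all genes, 6.37% higher and 7.97% lower). They were Xbp1, Sec61a1, P4hb, Manf and Sdf2l1. The members' median was 0.22 against -0.06 over all genes. That median was 0.24 without the pregnant mutant, 0.18 without the pregnant control, 0.11 without the virgin mutant and 0.34 without the virgin control. Those fits have 1 array in a stage, and fewer members and fewer of all genes were called in each. Between lactating and pregnant glands, 3 members were called higher, Hyou1, Trib3 and Sec61b, and 5 lower, Hsp90b1, Derl2, Pdia3, Pdia6 and Spcs2 (all genes, 15.1% higher and 16.8% lower). The median was -0.03, as it was over all genes. The members' median was -0.04 without the pregnant mutant, -0.03 without the pregnant control, -0.20 without the lactating mutant and 0.09 without the lactating control. Fewer members and fewer of all genes were called in each of these fits too. Across all 3 comparisons 14 members were never called, among them the sensors Ern1, Eif2ak3 and Atf6.

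The scale of the arrays bears on these counts. With each array centred on its own median instead of its deposited scaling, the median ratio of all genes in lactating against virgin glands moved to -0.69, against -0.10. The members called then were 6 higher and 14 lower, and the share of higher among all called genes was 18.7%, against 45.8%. For lactating against pregnant glands that share was 17.1%, against 47.4%, and for pregnant against virgin glands 26.8%, against 44.4%. Centring shifts all genes of a comparison by 1 amount and leaves their order as it was. The calls it ended in lactating against virgin glands were those of Sec11c, Calr, Syvn1, Sdf2l1 and Atf4. Relative to the median of all genes, 20 of 34 members lay above it in lactating against virgin glands, 17 in lactating against pregnant and 25 in pregnant against virgin. With quantile scaling these were 22, 20 and 25, and without the filter on dim genes 17, 12 and 24. Hyou1, P4hb, Xbp1, Trib3, Sec61a1 and Sec61b were called higher, and Hsp90b1 lower, in lactating against virgin glands under the main setting and all 15 alternatives. For Hsp90b1 the same held in lactating against pregnant glands.

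Markers of other cells moved with the stages too. Plasma cells are also rich in ER. Their genes (8 on the array, leaving out Xbp1) summed to 11983 and 10491 in virgin mutant and control. In pregnant glands the sums were 7237 and 5351, and in lactating glands 2823 and 3373. Of that list Jchain fell in the same order, while Mzb1 was lowest in pregnant glands, at 212.5 and 250.4. Fibroblast genes (6 genes) summed to 100831 and 100921 in virgin, 69801 and 61668 in pregnant and 16926 and 11428 in lactating glands, and adipocyte genes (8 genes) to 125153 and 123669, 78689 and 92648, and 48321 and 51972. Luminal epithelial genes (10 genes) summed to 58131 and 48449 in virgin, 63465 and 83715 in pregnant and 101773 and 65947 in lactating glands. Their part in the members' ratios was not tested.

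Of the 8 members with the ER stress element, 2 rose in lactating against virgin glands, Calr and Syvn1, and 3 fell, Hsp90b1, Hspa5 and Pdia6, with a median of -0.54. Of the 20 members with a window but no element, 6 rose and 2 fell, with a median of 0.19. Over all tested genes 23.9% were called higher and 28.2% lower, with a median of -0.10. The tally of the 8 depends on the probe set, since those of Hspa5 and Pdia6 differ in sign. The one of Pdia6 that pointed up was dim. With all probe sets of a gene averaged, Calr and Syvn1 rose, Hsp90b1 alone fell, Pdia6 was at 0.17 and the median was -0.01. Of the other 20, 18 passed the filter, with 8 higher, 1 lower and a median of 0.52. Among all 10243 genes then tested, 2705 were higher and 2143 lower, with a median of 0.09. Whether these medians differ was not tested, since the members were chosen with results known.

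Of the other genes of the secretory route, 79 tested of 85 listed, 28 were called higher and 8 lower in lactating against virgin glands, with a median of 0.42. Over all tested genes 23.9% were called higher and 28.2% lower, with a median of -0.10. In pregnant against virgin glands 11 and 0 of the 79 were called (all genes, 6.37% and 7.97%). In lactating against pregnant glands it was 8 and 5 (all genes, 15.1% and 16.8%). Among 14 N-glycosylation genes 7 rose and 1 fell in lactating against virgin glands, and among 14 other translocation genes also 7 and 1. Ssr2, of the same complex as Ssr1 and Ssr3, had 1680 and 1042 in virgin, 4975 and 5268 in pregnant and 5933 and 5392 in lactating mutant and control, a ratio of 2.05 ± 0.23 (SE, adjusted p = 0.0005091) in lactating against virgin glands. Fkbp11, a prolyl isomerase of the ER, had 905.7 and 488.9 in virgin, 3766 and 4615 in pregnant and 8526 and 8816 in lactating glands, a ratio of 3.60 ± 0.28 (SE, adjusted p = 0.0001708). Creb3l1, a membrane-bound factor cleaved on stress, had 193.1 and 233.3, 610.3 and 540.4, and 2006 and 2982 over the same pairs, a ratio of 3.24 ± 0.24 (SE, adjusted p = 0.0001344). Qsox1, a sulphydryl oxidase that makes disulphide bonds, had a ratio of 3.30 ± 0.25 (SE, adjusted p = 0.0001542).

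The other named genes of these lists moved both ways, each of the changes given here with an adjusted p of 0.04839 or less (limma). In lactating against virgin glands, Srpr, a subunit of the receptor for the signal recognition particle, rose by 1.67, while Spcs1, a small subunit of the signal peptidase, fell by 0.89. Of the glycosylation genes, Dad1, a subunit of the oligosaccharyltransferase, rose by 1.58 and Alg2, a mannosyltransferase, by 1.55, while Stt3b, a catalytic subunit of the oligosaccharyltransferase, fell by 0.51. Of the folding enzymes, the thioredoxin-like Tmx3 fell by 1.08 and the selenoprotein Selenom by 1.06. Of the degradation genes, Edem2, which acts on glycans, rose by 2.24 and Os9, a lectin, by 1.66, while the ubiquitin ligase Rnf139 fell by 0.80 and Ufd1, a cofactor of chain extraction, by 0.64. Of the integrated stress response targets, Chac1, which degrades glutathione, rose by 1.29 and the factor Atf3 by 0.82, while Psat1, of serine synthesis, fell by 1.18 and Vldlr, a lipoprotein receptor, by 1.16. Chac1 and Atf3 were both highest in the lactating control, at 1149 and 711.2, as Trib3 was. The lactating mutant read 293.4 for Atf3, near the virgin control at 288.6 and below the pregnant pair at 434.5 and 485.7. How the calls of these other genes held under other settings is not given here. Sec23b, of the vesicle coat for export, rose by 1.51. Ssr4, of the complex of Ssr1 and Ssr3, rose by 1.29 in pregnant against virgin glands. In lactating against pregnant glands Tram1, a translocation partner, rose by 0.80 and Derl3, a relative of Derl1, by 0.91, while Sec13, of the same vesicle coat as Sec23b, fell by 0.91.

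The study's own comparison, mutant against control over the 3 pairs, gave 0 calls among the members and 0 among all 11578 genes (0% called) in limma with the stage as a block. The fit pools unlike pairs. The virgin and lactating pairs set germline D11/D11 against controls without that allele, all p53+/-. The pregnant pair sets conditional co/co against +/co, both with MMTV-Cre. At an unadjusted p under 0.05 there were 9 members and 547 genes in all, and the lowest adjusted p was 0.9429. The fit without the stage block also gave 0. The members' median was 0.18, against 0.03 over all genes, and 26 of 34 were positive. None of the differences named next passed the test, and they are given as values.

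The mutant was higher in all 3 pairs for 15 of 34 members, 44.1%, against 15.1% of all tested genes. They were the lumenal chaperones Hspa5, Hsp90b1, Sdf2l1, Manf and Creld2, with Dnajb11, Calr, Canx, P4hb, Pdia6, Eif2ak3, Atf4, Syvn1, Sel1l and Sec61b. The mutant was lower in all 3 pairs for 2 members, 5.9%, Pdia4 and Trib3, against 10.6% of all genes. The list of members overlaps one for which a rise in mutants had already been seen on these arrays, so the count is not independent of that. Of the 8 members with the ER stress element, 7 were higher in all 3 pairs, with Dnajc3 the exception, and their median was 0.40. Of the 20 with a window but no element it was 7, with a median of 0.17.

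Creld2 had 1470 in the virgin mutant and 1273 in its control, 1906 and 1103 in pregnant and 1412 and 552.6 in lactating mutant and control. The mutant was the higher in each, with the widest gap at lactation, and the fitted ratio was 0.75 ± 0.22 (SE, adjusted p = 0.9429). For Sdf2l1, with its signals given above, the ratios of the pairs were 0.69 in virgin, 0.46 in pregnant and 0.68 in lactating glands, a fit of 0.61 ± 0.16 (SE). Syvn1 was at 0.20, 0.66 and 0.81 in the same order. Manf was at 0.50, 0.44 and 0.32, and Hsp90b1 at 0.18, 0.76 and 0.31. Atf4 had nearly equal signals in the virgin pair, with a ratio of 0.0022, and was at 0.58 in pregnant and 0.71 in lactating glands. Trib3, a known target of Atf4, was at -0.10, -0.43 and -1.33, a fit of -0.62 ± 0.25 (SE). Ddit3 had a fit of -0.63 ± 0.36 (SE) that rested on the lactating pair, at -1.83, with -0.14 and 0.08 in virgin and pregnant glands. Xbp1 showed no common sign, at 0.24, -0.12 and -0.22.

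**Figure D5:**
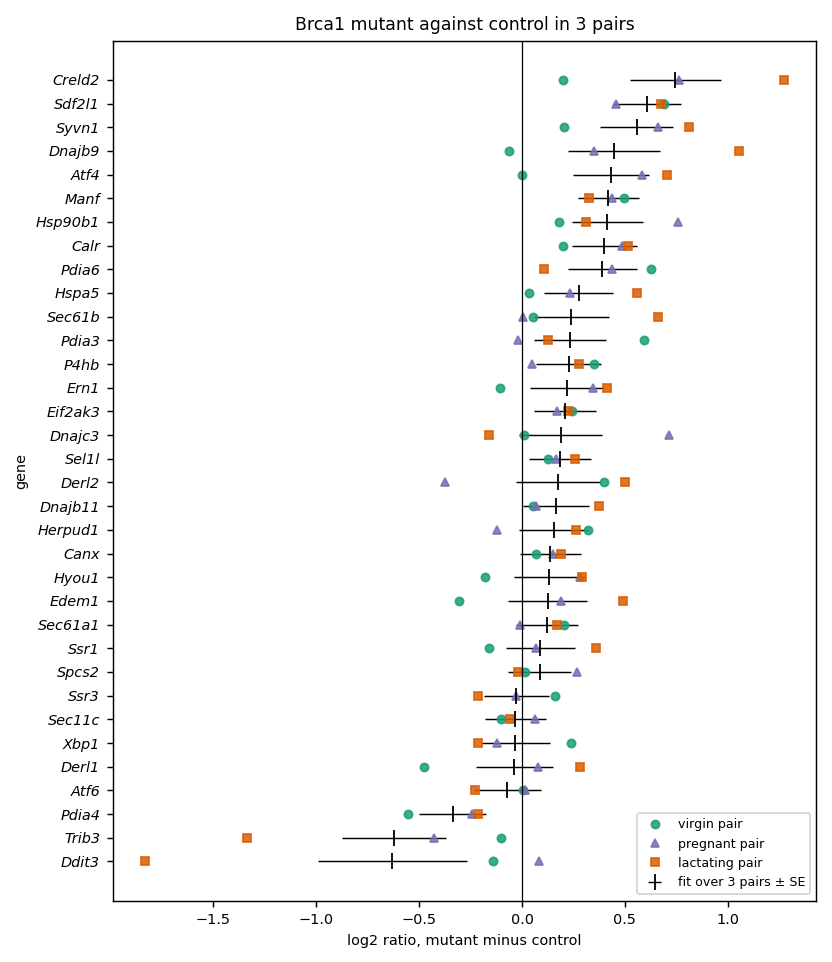
Log2 ratio of mutant minus control for each of the 34 members in the virgin, pregnant and lactating pairs (coloured points, 1 mouse per genotype) and the limma fit over the 3 pairs ± SE (bars). Creld2 lies highest and Ddit3 and Trib3 lowest.

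Within each pair, 1 mutant and 1 control array allow no test. In the virgin pair 24 of 34 members were higher in the mutant, with a median of 0.06, against 52.2% of all genes and a median of 0.02. A ratio of 1.5-fold or more was reached upward by 3 and downward by 0, against 7.88% and 5.17% of all genes. In the pregnant pair 26 were higher, with a median of 0.16, against 52.4% of all genes and a median of 0.02. Upward 4 and downward 0 reached 1.5-fold, against 5.86% and 3.96%. In the lactating pair 25 were higher, with a median of 0.28, against 54.1% of all genes and a median of 0.04. Upward 6 and downward 2 reached 1.5-fold, against 11.3% and 8.65%. The 2 lower were Trib3 and Ddit3. By role, the median of the 6 lumenal chaperones was 0.19 in virgin, 0.45 in pregnant and 0.44 in lactating glands. The 4 disulphide isomerases had 0.47, 0.02 and 0.12, and the 6 genes for entry and signal peptide removal 0.03, 0.03 and 0.07. The 7 sensors and transcription factors had 0.0022, 0.08 and -0.22, below 0 in the lactating pair alone. The J-domain co-chaperones had 0.0088, 0.35 and 0.37, the lectin chaperones 0.13, 0.32 and 0.35, and the degradation genes 0.16, 0.12 and 0.39. Summed plasma cell signals were higher in the mutant of the virgin and pregnant pairs and lower in that of the lactating pair. In the pregnant pair Jchain was higher in the mutant (2766 against 1536). Mzb1 (212.5 against 250.4) and Sdc1 (2157 against 2262), of the same list, were lower. Summed luminal epithelial signals were higher in the mutant of the virgin and lactating pairs and lower in that of the pregnant pair. Their part in the members' ratios was not tested.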

How the data were processed

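Total RNA of 6 mammary glands was hybridised to 1 mouse expression array each, per the labels. What the authors deposited is the MAS5 signal, an intensity on a linear scale, per the submitters' processing notes, with no version given in the sources used here. Every array had a 2%-trimmed mean of 500, and detection calls were not used here. Of 45101 probe sets, 64 were controls, 34945 carried 1 symbol, 932 several, and 9160 are unnamed here. The 1-symbol probe sets cover 18194 genes, of which 18033 matched a RefSeq table by ID. Values became log2(signal + 52.1), the pseudocount being the 25th percentile of all values. Genes at or above the median log2 value of 7.715 were tested, 11578 in all. limma 3.58.1 (R 4.3.3, lmFit and eBayes with a variance trend) fitted stage and genotype over all 6 arrays, with 2 residual and 5.506 prior degrees of freedom. P-values were Benjamini-Hochberg adjusted over all genes and called at 0.05. The code was tested on simulated data. Same-stage arrays are pairs by the labels. Their departures from the genotype means had correlations over genes of r = 0.855 (virgin), 0.585 (pregnant) and 0.822 (lactating). These departures hold the stage effect, which same-stage arrays share, so the correlations do not check the pairing. Nothing says that a mouse was sampled more than once, and the number of arrays limits the precision. Alternatives were other pseudocounts (14.9 and 168.7), scalings, filters and probe set rules, no variance trend, only the 4 arrays of a comparison, no stage block and each array left out. The text names all 34 members and, of each other ER list, the 2 called genes with the highest and the 2 with the lowest ratio in a stage comparison. Members and lists were chosen with earlier results of these data known. The series text gives all mutants the germline genotype. The labels were followed. Members' protein ends were not analysed here.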

Additional observations from a re-analysis of the deposited data

How the results depend on the processing

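The counts of called members, given as higher and lower, were 5 and 0 for pregnant against virgin, 3 and 5 for lactating against pregnant and 11 and 6 for lactating against virgin glands. Over all 11578 genes the counts were 738 and 923, 1754 and 1949, and 2763 and 3266 in the same order. Quantile scaling gave 6 and 2 for lactating against pregnant and 3 lower for lactating against virgin. Over all genes it gave 1706 and 2176, and 3410 lower. Centring on the median gave 2 higher for pregnant against virgin (median ratio 0.0473) and 0 and 13 for lactating against pregnant (-0.4387). For lactating against virgin it gave 6 and 14 (-0.4245). Over all genes it gave 495 higher, 785 and 3815, and 1321 and 5726 in the same order. Without the filter, pregnant against virgin had 3 higher, with 569 higher among all 18193 genes. With all probe sets of a gene averaged, lactating against pregnant had 1 lower and lactating against virgin 3 lower (median 0.3834). Among the 10243 genes then tested, 1361 and 2143 were lower. The ratio turned for Pdia3 (0.4771 to pregnant, 0.3566 to virgin) and Pdia6 (0.1664 to virgin), each averaged with a dim probe set. Without probe sets prone to cross-hybridisation, Canx turned to 1.1256 in pregnant against virgin glands. Without the variance trend, lactating against pregnant had 1 and 3, and lactating against virgin 3 lower. Over all genes these were 1741 and 1749, and 3168 lower. On only the 4 arrays compared, pregnant against virgin had 8 higher and lactating against pregnant 3 lower. Over all genes, pregnant against virgin then had 1131 higher and 1640 lower, and lactating against pregnant 1691 and 1719. With 1 array left out, the members' median was 0.1123 to 0.3449 for pregnant against virgin. It was -0.1974 to 0.0852 for lactating against pregnant and 0.0188 to 0.2148 for lactating against virgin. Those fits have 1 array in a stage, and fewer of all genes were called in each. The cause was not tested, apart from fewer arrays. Mutant against control gave 0 called members under every alternative, no stage block included. The stage block pairs the arrays in the fit that the text reports, and it changed no call. Signal over background limits the dim members Ddit3 and Trib3.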
